A study of Mus musculus with 4 samples.

Results

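The 10 genes described here encode neural proteins: Cbln2, Nefl, Nefm, Nrcam, Serpini1, Lgi2, Vgf, Gap43, Map2 and Elavl4. They were chosen by their levels in 2 of 4 arrays, most of them being higher in Oct4+Klf4-negative cells than in Oct4-negative cells, out of 18193 genes named on the array. The choice set no numeric threshold. The arrays read RNA of mouse embryonic fibroblasts (MEFs), connective tissue cells grown from embryos, in the course of reprogramming toward pluripotency. The cells were fixed, permeabilized, stained for the transcription factors Oct4 and Klf4 and the epithelial adhesion protein EpCAM, and sorted into 4 fractions. The first group lacked Oct4. The second was Oct4+Klf4-negative, the third had both factors without EpCAM (Oct4+Klf4+EpCAM-negative), and the last carried all of them (Oct4+Klf4+EpCAM+), with 1 array each. All 4 groups went through the same fixation, sorting and amplification, per the labels. Mouse strain, embryo age, the factors introduced, the time of sorting and the source culture of the Oct4-negative cells are not stated in the labels. Because each fraction was read once, no difference has a replicate check or a test, and precision is limited by having 4 arrays.

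Neurons carry a set of proteins that most other cells lack. Neurofilaments fill and widen the axon, Map2 binds the microtubules of dendrites, and Gap43 lies under the membrane of growing axon tips. Nrcam holds axons to other cells, Cbln2 and Lgi2 are secreted and bind synaptic receptors, Vgf is stored in secretory granules and cut into peptides, Serpini1 encodes the protease inhibitor neuroserpin, and Elavl4 binds and stabilizes neuronal messenger RNAs. In fibroblasts such genes are mostly silent, in part through the repressor REST.

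Values are log2 levels, so that a difference of 1 is 2-fold. A gene was read by its brightest probe set and counted as higher or lower where 2 arrays were 2-fold or more apart and the larger level was at or above the floor, the median of all values (4.53). A background ceiling of 2.94, set by the brightest of 27 control probe sets for bacterial genes, marks readings that cannot be told from no transcript. A fold whose lower level lay at or below the ceiling was taken from the ceiling instead and is a lower bound, written "at least". Probe sets of the same gene differed from each other by a median SD of 0.167 at the Oct4 step, 0.172 at the Klf4 step and 0.122 at the EpCAM step, over 5708 genes. This scatter leaves out any spread from 1 culture or sort to another. In RNA of sorted cells, fewer cells of a type and less RNA per cell cannot be told apart.

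Of the sorted proteins, the Oct4 gene Pou5f1 had levels of 7.59, 11.48, 11.66 and 11.70 and Epcam of 4.63, 5.20, 6.54 and 9.52 in gate order, both highest where the label has the protein. Klf4 had levels of 7.32, 6.24, 10.20 and 10.60 by its brightest probe set, and a second went the other way (6.95, 5.69, 2.67 and 3.20). Array medians lay between 4.49 and 4.55. The level of Gapdh control probe sets at the 3′ end exceeded that at the 5′ end by 1.04, 1.30, 1.04 and 0.97 in gate order, largest in the Oct4+Klf4-negative array where the 10 genes were high, and that of Actb by -0.06, -0.05, -0.06 and -0.07. The part of this difference in the levels of the 10 genes was not tested.

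All 10 genes reached the floor in the Oct4+Klf4-negative array. In Oct4-negative cells 2 did, past the Klf4 gate 7 did while EpCAM was absent, and 6 did in EpCAM+ cells. Nefm, Vgf and Elavl4 reached it in the Oct4+Klf4-negative array alone, so a call for these 3 could only come from that array. The 10 genes had 22 probe sets, of which 18 reached the floor on some array and 4 did not. In the contrast that chose them, Oct4+Klf4-negative against Oct4-negative cells, all 10 were higher, by 1.51 to 6.42 on the log2 scale, where 3.59% of the 11428 genes reaching the floor were higher and 4.84% lower. These figures restate the choice and nothing is read from them.

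Past the Klf4 gate the genes parted into 2 patterns, which were separated after their values had been seen. Cbln2, Nefl, Nefm, Vgf, Gap43, Map2 and Elavl4, 7 of the 10, were lower in Oct4+Klf4+EpCAM-negative cells than in Oct4+Klf4-negative cells, by 1.60 to 4.84 on the log2 scale. Nrcam, Serpini1 and Lgi2 were not, with differences of 0.07, 0.30 and -0.36. Over all genes 6.88% were lower at that gate and 8.44% higher. The comparison shares the Oct4+Klf4-negative array with the choice of the genes, which were picked for being high there, so the count is a description. For Nrcam, Serpini1 and Lgi2 the data go against the name of neural genes raised without Klf4, because they were high with Klf4 too. They were set apart by the size of their difference between the Klf4-positive, EpCAM-negative array and the Oct4-negative array, so it is a description. By that difference they lay 4.92, 5.14 and 4.43 above the Oct4-negative array. Of the other genes, the nearest in that respect was Nefl, 2.73 above it, and Cbln2 was 1.65 above it. In all, 5 of 10 genes were higher in Oct4+Klf4+EpCAM-negative than in Oct4-negative cells and 0 were lower, where 8.68% of all genes were higher and 8.69% lower. That comparison uses the Oct4-negative array, which also served in the choice, so nothing is read from the count.

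**Figure D1:**
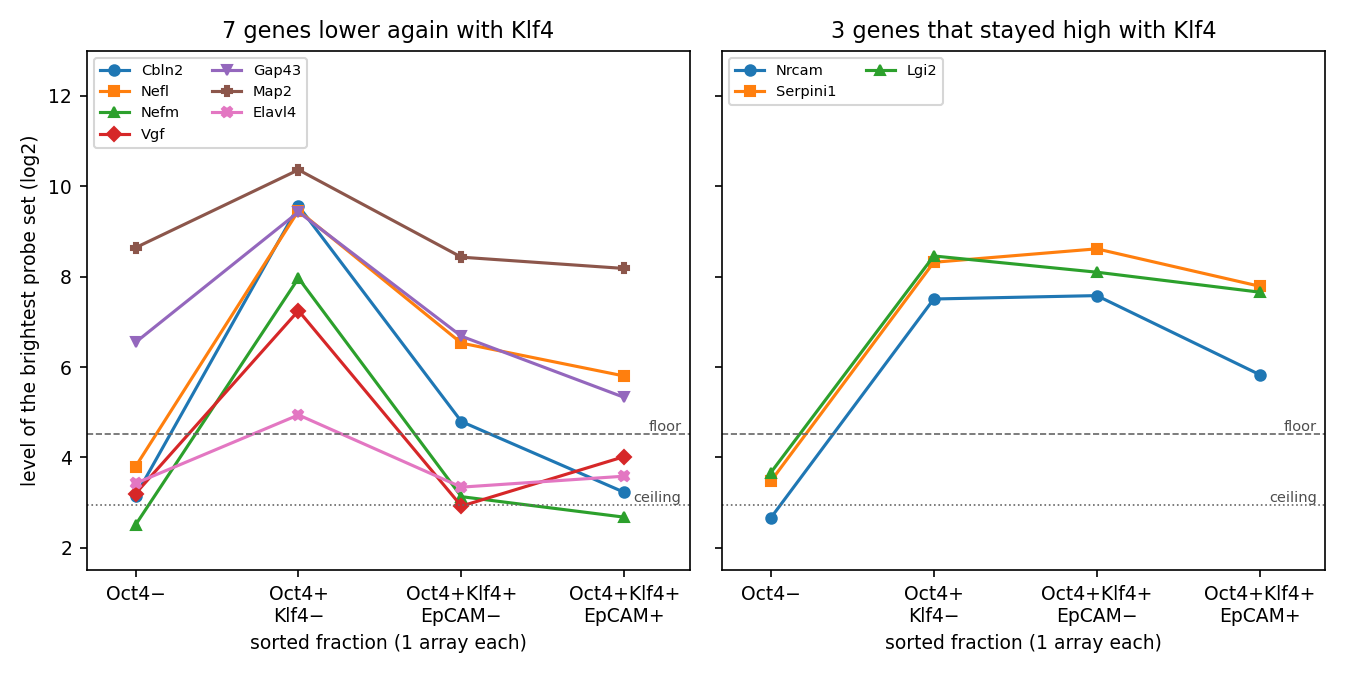
Levels of the 10 genes on the log2 scale (vertical axis) in the 4 sorted fractions in gate order (horizontal axis), 1 array each and therefore without error bars. The dashed line is the floor of 4.53 and the dotted line the background ceiling of 2.94. At left, 7 genes stand highest in Oct4+Klf4-negative cells and lower on either side. At right, Nrcam, Serpini1 and Lgi2 keep their levels in Oct4+Klf4+EpCAM-negative cells.

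Promoter sequences are shown for the members with an entry in the RefSeq table (GRCm38.p6), 5 of 10, because the members, chosen as high past the Oct4 gate, parted at the Klf4 gate. Each runs 5′ to 3′ toward the gene and ends at its outermost annotated start. Capitals mark matches, on either strand, to letters searched in the whole windows: TTCAGCACC and GGACAGC (parts of the element bound by REST), CACCC (bound by Klf proteins), CAGCTG and CAGATG (E-boxes), GGGCGG (GC box) and TATAAA. The first 3 stayed high past the Klf4 gate and the last 2 were lower there.
Nrcam (chr12:44328635-44328785, plus strand): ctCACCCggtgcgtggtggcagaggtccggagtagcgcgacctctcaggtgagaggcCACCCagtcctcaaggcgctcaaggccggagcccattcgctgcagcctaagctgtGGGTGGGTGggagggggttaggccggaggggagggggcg
Serpini1 (chr3:75557243-75557492, plus strand): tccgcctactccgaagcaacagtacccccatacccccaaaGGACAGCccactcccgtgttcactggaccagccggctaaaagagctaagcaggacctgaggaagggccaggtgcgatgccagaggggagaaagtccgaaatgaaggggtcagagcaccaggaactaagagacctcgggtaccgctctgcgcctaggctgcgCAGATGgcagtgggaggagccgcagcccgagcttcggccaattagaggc
Lgi2 (chr5:52566307-52566556, minus strand): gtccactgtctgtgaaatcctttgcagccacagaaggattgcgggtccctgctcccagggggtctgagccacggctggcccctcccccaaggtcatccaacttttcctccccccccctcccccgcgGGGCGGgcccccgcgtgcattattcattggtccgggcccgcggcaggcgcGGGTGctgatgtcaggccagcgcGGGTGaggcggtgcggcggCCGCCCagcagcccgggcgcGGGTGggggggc
Map2 (chr1:66175079-66175201, plus strand): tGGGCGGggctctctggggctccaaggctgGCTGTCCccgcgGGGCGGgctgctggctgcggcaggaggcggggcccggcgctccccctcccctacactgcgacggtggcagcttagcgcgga
Elavl4 (chr4:110351940-110352161, minus strand): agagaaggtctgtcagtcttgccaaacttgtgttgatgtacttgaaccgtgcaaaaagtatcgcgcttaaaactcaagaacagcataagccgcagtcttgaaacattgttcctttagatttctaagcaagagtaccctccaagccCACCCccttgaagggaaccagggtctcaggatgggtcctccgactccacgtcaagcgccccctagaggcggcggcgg

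In windows of 300 bases, 250 before and 50 after a start, CACCC was found in 3 of the 5 genes, Nrcam, Lgi2 and Elavl4, and in 57.5% of 32851 windows of all genes. GGGCGG was found in Nrcam, Lgi2 and Map2, and in 35.7% of all windows. GGACAGC was found in Serpini1 and Map2 (6.56% of all windows), CAGATG in Serpini1 and Elavl4 (17.2%), and CAGCTG in Elavl4 (16.3%), which has several windows, some overlapping. TTCAGCACC (0.371%) and TATAAA (13.6%) were in none of the 5 genes. The E-box matches of Elavl4 lay in windows of starts other than the one printed. The GGGCGG matches of Nrcam ran past the end of its printed stretch. Among these 5 genes CACCC and GGGCGG each occurred both in genes that stayed high and in genes lower there, as did GGACAGC and CAGATG. Whether any motif goes with either pattern was not tested. The genes are few, and the patterns were separated after the values had been seen. Most genes lower at the Klf4 gate have no window, and Elavl4 was searched in several windows while the shares are per window. A match is a description of letters and not of a bound site.

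The EpCAM step, from Oct4+Klf4+EpCAM-negative to Oct4+Klf4+EpCAM+ cells, used neither array that chose the genes. There 3 of 10 genes were lower, Nrcam (3.36-fold), Cbln2 (2.96-fold) and Gap43 (2.56-fold), and 0 were higher, whereas 1.79% of all genes were lower and 3.11% higher. Nefm, Vgf and Elavl4 were below the floor on both arrays, so 7 of the 10 could be called. The size of the count depended on the thresholds: 1 of 10 genes was lower at 3-fold, 5 at 1.5-fold, and 1 with the floor raised to the 75th percentile.

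**Figure D2:**
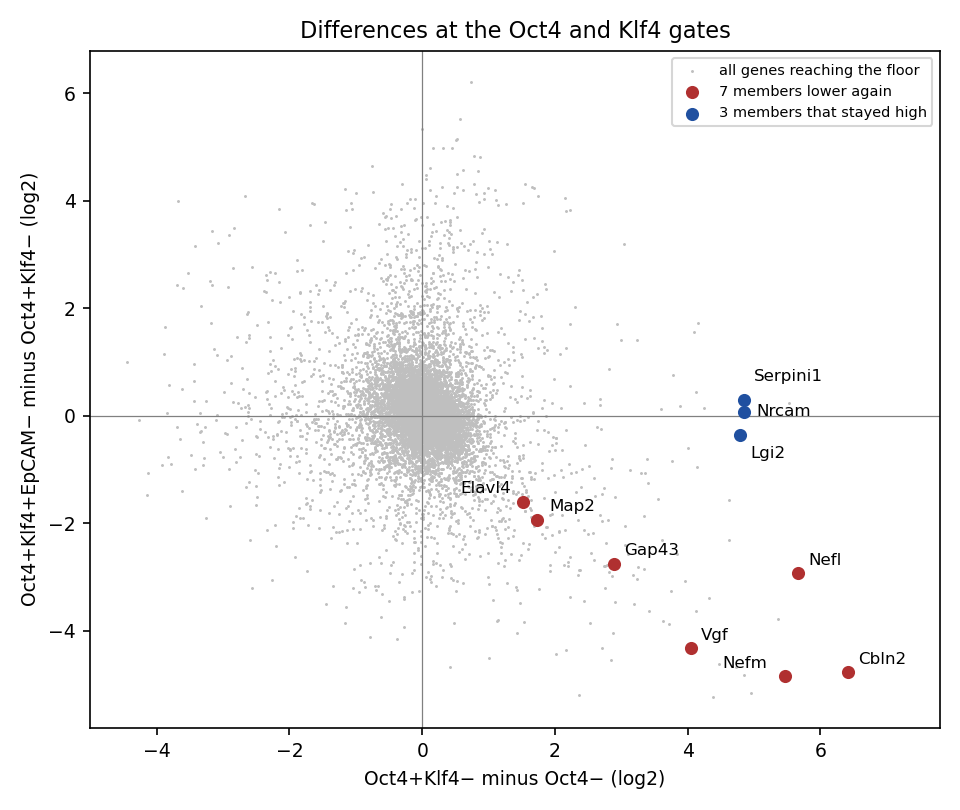
Each point is a gene reaching the floor (11428 in grey), by its log2 difference at the Oct4 gate (Oct4+Klf4-negative minus Oct4-negative, horizontal axis) and at the Klf4 gate (Oct4+Klf4+EpCAM-negative minus Oct4+Klf4-negative, vertical axis). Of the neural genes, 7 (red) lie below the horizontal line, from -1.60 to -4.84, while Serpini1, Nrcam and Lgi2 (blue) lie between 0.30 and -0.36. Both axes use the Oct4+Klf4-negative array.

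Among the structural genes, Nefl, the light neurofilament chain on which the other chains assemble, had a level of 3.80 in Oct4-negative cells, 9.46 in Oct4+Klf4-negative cells, 6.53 once Klf4 was present and 5.80 in EpCAM+ cells, an order kept for the values below. It was 50.7-fold higher at the Oct4 gate, 7.62-fold lower at the Klf4 gate, and still 4.01-fold higher at the EpCAM+ end than at the start. A dimmer probe set of Nefl had levels of 2.78, 4.96, 3.17 and 2.42 and did not share that remainder, being at or below the background ceiling at both ends. With its probe sets averaged, the log2 difference at the Oct4 gate was 3.92 in place of 5.66.

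Nefm, the medium neurofilament chain, had levels of 2.51, 7.97, 3.13 and 2.68. It stood out in the Oct4+Klf4-negative array alone, at least 32.6-fold above Oct4-negative cells and 28.6-fold above Oct4+Klf4+EpCAM-negative cells. Its fall at the Klf4 gate ranked 4 in size among the 11428 genes. That fall is measured from the array on which the genes were chosen as high, so the rank is a description. Nefl and Nefm are chromosomal neighbours in the RefSeq annotation, with 0 protein-coding genes between them. The heavy chain gene Nefh did not share their pattern: its levels were 2.83, 2.81, 4.53 and 4.69, highest in the Klf4-positive arrays.

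Map2, which stabilizes the microtubules of dendrites, was read by 4 probe sets, all of which reached the floor. Its brightest probe set had levels of 8.64, 10.36, 8.43 and 8.18, a difference of 3.30-fold at the Oct4 gate and of 3.82-fold, downwards, at the Klf4 gate. The 4 probe sets were higher by 1.44 to 1.84 at the first gate and lower by 1.77 to 2.33 at the second, on the log2 scale. In Klf4-positive cells Map2 was 0.21 below the Oct4-negative array, less than 2-fold apart.

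Gap43 had levels of 6.55, 9.43, 6.68 and 5.33 and, with Map2, reached the floor in all 4 fractions. It was 7.39-fold higher at the Oct4 gate and 6.73-fold lower at the Klf4 gate, which brought it to within 0.14 of the Oct4-negative level. At the EpCAM gate it was lower again, so that the EpCAM+ end lay 2.33-fold below the start, the only one of the 10 genes lower between the ends. There 4 genes were higher, Nefl, Nrcam, Serpini1 and Lgi2, with 11.9% of all genes higher and 10.8% lower. The Oct4-negative array served in the choice too, so this count is also a description. When the probe sets of each gene were averaged, 2 were higher.

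Other genes of the neuronal cytoskeleton were high in different fractions. Of 20 such genes, 15 reached the floor, and 2 were higher at the Oct4 gate and 1 lower (3.59% and 4.84% of all genes). At the Klf4 gate 8 were higher and 0 lower (8.44% and 6.88% of all genes). The median of the list there was 1.13 against 0.04 over all genes (0.42 to 2.12 under the alternatives). The 8 included Crmp1, a mediator of semaphorin signals (22.6-fold), Tubb3, the neuronal beta tubulin (19.8-fold), Stmn2, which acts on microtubules in axons (18.9-fold), and Dclk1, a microtubule-binding kinase (11.6-fold). Tubb3 had levels of 4.83, 4.53, 8.84 and 9.71, and Stmn2 of 5.24, 6.93, 11.17 and 10.98. Nefl, Nefm and Map2 were thus lower at the gate where these genes were higher. At the EpCAM gate 1 gene of the list was higher and 2 were lower (3.11% and 1.79% of all genes). These shares of all genes at each gate also stand beside the counts of the lists below.

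Of 12 genes of growth cones and axon outgrowth, 9 reached the floor. At the Oct4 gate 1 was higher, Negr1, an adhesion protein of neurites, with levels of 2.87, 6.49, 2.68 and 2.49. Nrn1, the outgrowth factor neuritin, and Sprr1a were lower by 6.52-fold and 2.77-fold. Basp1, Marcks and Marcksl1, membrane proteins of growth cones like Gap43, differed by less than 2-fold at each of the 3 steps. At the Klf4 gate Sprr1a was the 1 gene higher and Negr1 the 1 lower, and at the EpCAM gate Sprr1a was again the 1 higher. The list's median was 0.15 at the Oct4 gate, of unsettled direction (-0.18 to 0.16 under the alternatives), and -0.30 at the Klf4 gate (-0.30 to -0.09).

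Of the adhesion genes, Nrcam had levels of 2.66, 7.51, 7.58 and 5.83 from Oct4-negative to EpCAM+ cells. It was at least 23.7-fold higher at the Oct4 gate, level across the Klf4 gate and 3.36-fold lower at the EpCAM gate. A dimmer probe set, with levels of 2.64, 4.63, 4.86 and 3.15, moved the same way, and the other 2 did not reach the floor. With the 4 averaged, the log2 difference at the Oct4 gate was 1.76 in place of 4.84.

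The relatives of Nrcam did not follow it together. Chl1, of the same L1 family, had levels of 5.26, 7.85, 6.69 and 5.56, being higher at the Oct4 gate (6.03-fold) and lower at both later gates. L1cam was 3.41, 3.27 and 3.53 before it reached 5.02 in EpCAM+ cells, and Nfasc stayed between 5.12 and 5.20. Ank2, an ankyrin that anchors L1 family proteins to the cytoskeleton, was 4.06-fold higher at the Oct4 gate, with levels of 5.70, 7.72, 7.31 and 6.99. Ncam1, another neural adhesion molecule, had levels of 6.71, 8.83, 7.71 and 5.30. Cntn3, a contactin, was at least 3.64-fold higher at the Oct4 gate. The semaphorin receptors Nrp1 and Nrp2 were 4.48-fold and 6.19-fold lower at the Oct4 gate. Of the 13 genes of this list that reached the floor, of 18, 4 were higher and 2 lower at the Oct4 gate, and 1 was higher and 4 lower at the Klf4 gate. At the EpCAM gate 2 were higher and 2 lower, and the list's medians were 0.06 (-0.08 to 0.08 under the alternatives), -0.24 (-0.77 to -0.11) and -0.06 (-0.26 to -0.02) at the 3 gates.

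Cbln2, a secreted cerebellin that bridges neurexins and glutamate receptor delta proteins, had levels of 3.14, 9.56, 4.79 and 3.23, by its only probe set. Its level in Oct4+Klf4-negative cells was 85.6-fold above Oct4-negative cells, the contrast that chose it, and 27.3-fold above the next fraction. In EpCAM+ cells it lay within 0.08 of the Oct4-negative level. The related genes Cbln1, Cbln3 and Cbln4 stayed below the floor.

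Lgi2, a secreted protein of the LGI family, whose members bind receptors of the ADAM22 group at synapses, had levels of 3.66, 8.46, 8.10 and 7.66. A second probe set gave 4.61, 7.82, 7.63 and 7.40. By either, Lgi2 was higher in each Oct4-positive fraction than in Oct4-negative cells, and neighbouring Oct4-positive fractions differed by less than 2-fold. Lgi1, Lgi3 and Lgi4 stayed below the floor.

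Among the receptors, Adam23 had levels of 5.14, 6.83, 8.28 and 7.99, 3.23-fold higher at the Oct4 gate and 2.73-fold at the Klf4 gate. Adam22 went from 4.74 to 5.59 and Adam11 stayed between 4.86 and 5.08, without a step of 2-fold. Of 18 synapse organizers and receptors 7 reached the floor, and Adam23 was the only one past 2-fold at any gate.

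Vgf, the precursor of several neuropeptides and a target of neurotrophins, had levels of 3.20, 7.25, 2.92 and 4.02, by its only probe set. It was 16.5-fold higher at the Oct4 gate and at least 19.8-fold lower at the Klf4 gate. The level of 4.02 in EpCAM+ cells lay 1.10 above the fraction before it but below the floor, and Vgf was called higher there only when no floor was used.

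A list of granins, prohormone processing genes, neurotrophins and neurotrophin receptors was split. Scg5, the chaperone of a prohormone convertase, had levels of 3.97, 7.11, 6.10 and 3.58, 8.81-fold higher at the Oct4 gate and 5.72-fold lower at the EpCAM gate. Ntrk3, the receptor of neurotrophin 3, was alike at these gates, with 4.34, 7.72, 6.92 and 4.57. At the Klf4 gate Scg5 was 2.02-fold lower, while Ntrk3, 1.74-fold lower, did not pass 2-fold. Bdnf, a neurotrophin, was 3.76-fold lower at the Oct4 gate, and Ngfr, the low-affinity neurotrophin receptor, was 10.5-fold higher at the Klf4 gate. Cpe and Pam, peptide processing enzymes, differed by less than 2-fold at each step. Of 15 genes of this list 7 reached the floor, of which 2 were higher and 1 lower at the Oct4 gate, 2 higher and 1 lower at the Klf4 gate, and 0 higher and 2 lower at the EpCAM gate.

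Serpini1 had levels of 3.48, 8.32, 8.62 and 7.79 in gate order. A second probe set gave 2.97, 7.46, 7.46 and 6.81, and the remaining probe set did not reach the floor. Their average gave a log2 difference of 3.15 at the Oct4 gate in place of 4.84. Serpini1 was 28.7-fold higher at the Oct4 gate and 19.9-fold higher in EpCAM+ than in Oct4-negative cells, the largest difference of the 10 genes between the ends.

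Neuroserpin inhibits tissue-type plasminogen activator. A list of 10 genes of the plasminogen activator system and of lipoprotein receptors was read beside it. Of the 8 analysed, 5 reached the floor, and all 5 were lower at the Oct4 gate, with a median of -2.49 against 0.02 over all genes (-2.52 to -1.58 under the alternatives). Plat, the tissue-type activator, had levels of 6.14, 3.10, 2.42 and 2.40, an 8.25-fold difference at that gate. Plau, the urokinase, had 8.21, 5.73, 4.22 and 3.34. Vldlr, a receptor of the lipoprotein receptor family, was 9.52-fold lower, and Lrp1, which takes up complexes of activator and inhibitor, 2.02-fold. Plaur, the urokinase receptor, was 4.40-fold lower at the Oct4 gate and 4.35-fold higher at the Klf4 gate, where it was the 1 gene of the list higher and Plau the 1 lower, and its levels of 7.63 and 8.22 in the Klf4-positive arrays were not below the 7.65 of Oct4-negative cells. At the EpCAM gate 0 passed 2-fold.

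Elavl4, which stabilizes messenger RNAs in neurons, reached the floor narrowly. Its brightest probe set had levels of 3.43, 4.94, 3.34 and 3.58, and a second gave 2.84, 5.09, 3.01 and 2.94. By the first it was 2.86-fold higher at the Oct4 gate and 3.03-fold lower at the Klf4 gate, and the probe sets moved alike at both. Its difference at the EpCAM gate was 0.24 by the first and -0.07 by the second, without a shared direction.

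The relative Elavl2 was high in all Oct4-positive fractions, with levels of 3.02, 8.54, 8.79 and 8.73, so that Elavl4 and Elavl2 differed at the Klf4 gate, by -1.60 and 0.24. Elavl1, the member of the family found in most cells, stayed between 9.49 and 9.75. Elavl3 stayed below the floor by its brightest probe set, and a second reached it in EpCAM+ cells alone (4.64). Nova2, a neuronal splicing factor, was 10.8-fold higher at the Klf4 gate, where Ptbp2 was 2.75-fold lower. Of 18 RNA-binding genes 13 reached the floor, and 1 was higher (Elavl2) and 1 lower (Celf4) at the Oct4 gate, with a median of 0.04. At the EpCAM gate 1 was higher, Celf5.

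The repressor gene Rest, by its brightest probe set, had levels of 9.09, 9.15, 8.69 and 8.78, and a dimmer one (5.92, 6.42, 5.34 and 5.92) was 2.11-fold lower at the Klf4 gate. The partners Rcor1 and Rcor2 differed by less than 2-fold at each step. Of 24 neuronal transcription factors and these repressors, 9 reached the floor, of which 2 were higher and 1 lower at the Oct4 gate, 3 higher and 2 lower at the Klf4 gate, and 0 either way at the EpCAM gate. Insm1, a factor of neuronal and endocrine progenitors, was 2.79-fold higher at the Oct4 gate and 3.86-fold at the Klf4 gate, with levels of 3.24, 4.72, 6.67 and 6.13. Ebf1 had 5.47, 6.75, 3.64 and 4.11, higher at the Oct4 gate and lower at the Klf4 gate. Neurod1, Neurog1, Neurog2 and Myt1l stayed below the floor, and Ebf3 was 3.67-fold lower at the Oct4 gate and Lhx2 at least 4.07-fold lower at the Klf4 gate.

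**Figure D3:**
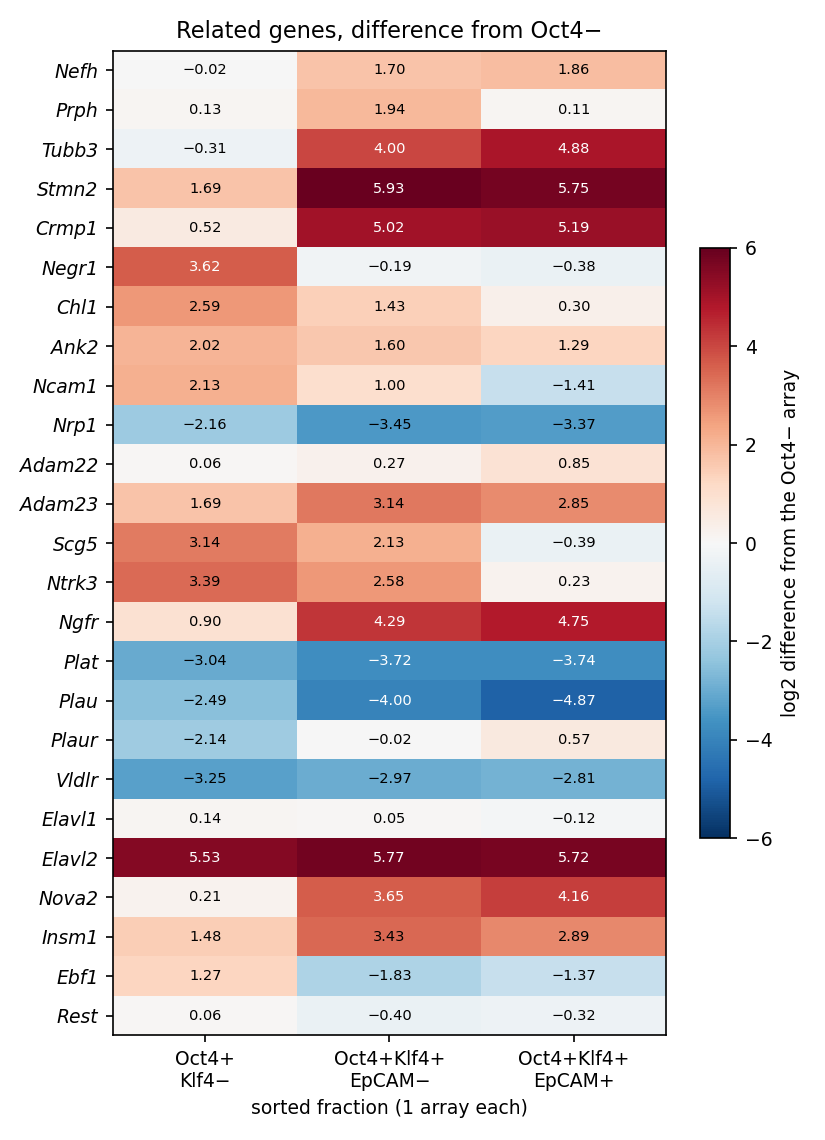
Log2 differences of 25 related genes (rows, taken from the lists after their values had been seen) from the Oct4-negative array in the 3 Oct4-positive fractions (columns), 1 array each. Red is higher and blue lower than in Oct4-negative cells. Elavl2 is high in all 3 columns, Tubb3 and Crmp1 in the Klf4-positive columns, Negr1 in Oct4+Klf4-negative cells alone, and Plat and Plau are low throughout. Nefh, Prph, Negr1 and Nova2 start at or below the background ceiling, so their differences are not exact. Plat lies below the ceiling in the Klf4-positive columns, where its differences are not exact either.

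Genes were sought with a profile near the median centred levels of the neural genes, by root mean square difference over the 4 arrays. The search covered 10990 other genes. The nearest 8 to that median were Car2 (0.21 on the log2 scale), Mgarp, Dmd, Gja3, Elmo1, Rasgef1b, St8sia4 and Klhl29 (0.45). The neural genes themselves all lay farther from it, from 0.70 (Nefl) to 1.49 (Serpini1). The median mixes the patterns that parted at the Klf4 gate, so nearness to it does not show likeness to any single neural gene. Car2, which encodes a carbonic anhydrase, had levels of 6.19, 9.81, 7.49 and 7.11, and Dmd, which encodes dystrophin, 5.77, 9.33, 7.79 and 7.32. The same search for each pattern, added after the values had been seen, gave different genes. Nearest to the 7 lower at the Klf4 gate were Fbln7, C1qtnf2 and Pde1a. Nearest to Nrcam, Serpini1 and Lgi2 were Reep1 (0.28) with levels of 3.56, 7.70, 8.14 and 7.47, Tox3 (0.39) and Pou5f1 (0.47), the gene of the sorted protein Oct4. Mndal (0.51) and Elavl2 (0.62) came next. With 4 arrays such likeness is a description.

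Markers of cell types were read beside these genes. Of 15 neuronal markers 5 reached the floor, and by the brightest probe set of each gene Syp, Syn1, Dcx, Elavl3, Gad1, Gad2, Slc17a6, Slc17a7, Th and Chat did not. Their summed linear level was 192 in Oct4-negative, 286 in Oct4+Klf4-negative, 2910 in Oct4+Klf4+EpCAM-negative and 3029 in EpCAM+ cells, and Tubb3 and Stmn2, also in the cytoskeleton list, made up most of it past the Klf4 gate. Without these 2, left out after their values were seen, the other 13 summed to 126, 141, 150 and 163. Of the neuronal markers, 2 were higher at the Oct4 gate, Stmn2 (3.23-fold) and Syt1, a synaptic vesicle protein (2.37-fold). At the Klf4 gate 2 were higher, Tubb3 and Stmn2, and at the EpCAM gate 1, Snap25, with 0 lower at any gate. Snap25 had levels of 2.10, 2.35, 3.27 and 5.04, and Rbfox3 of 4.57, 4.47, 4.37 and 4.63. The sum of the progenitor and glial markers was 868, 580, 1159 and 944, with 7 of 14 reaching the floor, among them Sox1 (2.90, 5.05, 9.10 and 9.03), Fabp7 (3.43, 6.42, 7.83 and 5.46) and Mbp (4.25, 7.54, 6.48 and 7.02). At the Oct4 gate 3 of this list were higher (these) and 3 lower, Nes (8.66 to 7.10), Slc1a3 (6.91 to 4.61) and Cspg4 (7.84 to 4.21). Sox2 and Pax6 stayed below the floor.

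The neural crest and Schwann cell markers summed to 471, 302, 642 and 1272 (7 of 11 at the floor), Sox10 staying between 4.49 and 4.67. Erbb3 (4.63, 5.27, 8.43 and 9.86) and Ngfr were higher past the Klf4 gate, while Ets1 (7.58 to 3.14), Mitf (6.08 to 2.14) and Tfap2b (6.77 to 4.01) were lower at the EpCAM+ end than in Oct4-negative cells. Without Erbb3, left out after its values were seen, the sum was 446, 263, 296 and 343. The neuroendocrine markers summed to 51.0, 81.5, 145 and 112 (1 of 6, Insm1), with Chga and Chgb below the floor, and those of skeletal muscle to between 103 and 136 (2 of 10). Fibroblast markers, the labelled cell type, summed to 17785, 11913, 7466 and 4270, with 11 of 12 at the floor and Pdgfra below it. Of these, 3 were higher (Thy1, Dcn and Postn) and 4 lower at the Oct4 gate. At the Klf4 gate 2 were higher (Dcn and S100a4) and 8 lower, and at the EpCAM gate 0 were higher and 4 lower. Dcn, with levels of 6.76, 8.62, 10.97 and 10.98, went against the sum. Keratinocyte markers summed to 350, 418, 3912 and 6279 (9 of 12), and macrophage markers to 280, 108, 151 and 160 (2 of 8). The part of any other cell type in the levels of the 10 genes was not tested.

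**Figure D4:**
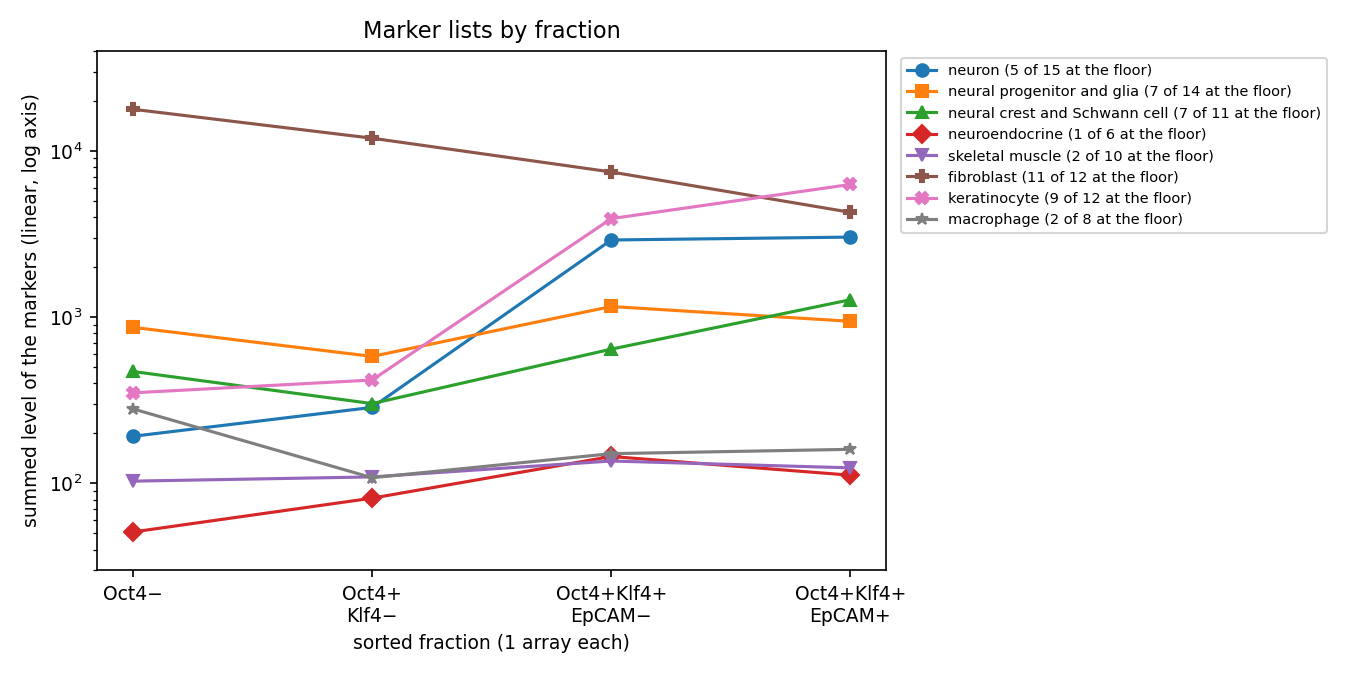
Summed linear level of each marker list (vertical axis, log scale) in the 4 sorted fractions (horizontal axis), 1 array each. Neuronal markers stand at 192 and 286 before the Klf4 gate and at 2910 and 3029 after it, mostly through Tubb3 and Stmn2. The fibroblast sum goes from 17785 to 4270, although Dcn, a part of it, is higher at the end.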

How the data were processed

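The deposited table holds log2 levels of 45101 Affymetrix probe sets in 4 samples, made by the authors with RMA per the submitters' processing notes; its version is not stated there. RMA in general subtracts background, quantile-normalizes and summarizes probes by median polish. Per the labels' protocols, RNA of fixed sorted cells (RecoverAll) was amplified with the Ovation Pico WTA kit, which can favour some transcripts. Control probe sets (64), those with several genes (932) and those not listed in the platform annotation (9160) were left out, and 34945 gave 18193 genes. Each gene was read by the probe set with the highest mean, using Python 3.11.15, pandas 2.3.3 and numpy 2.4.6. The size rule and the likeness search were tested on simulated data. Groups were taken from the sample titles, 1 array each, so differences are given without p-values. The members and the 8 related and 8 marker lists were chosen with earlier results of these data known, and 222 of 236 listed genes were matched. All members are named, together with family relatives reaching the floor, up to 4 genes of a list past the size rule at the Oct4 or Klf4 gate, the 8 nearest profiles, and any list member with its value. Alternatives were the gene summary, the floor, the fold threshold and the scaling.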

Additional observations from a re-analysis of the deposited data

How the results depend on the processing

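Of 64 counts of members recomputed under 8 alternatives, 55 stayed within 1.5 times the value reported. With the floor at the 75th percentile, 1 member was lower at the EpCAM step, 3 were higher in Oct4+Klf4+EpCAM-negative than in Oct4-negative cells, and between the ends 2 were higher and 0 lower. With probe sets averaged, 2 were higher between the ends, since Nefl and Nrcam have dim probe sets. With no floor, 1 (Vgf) was higher at the EpCAM step. At 3-fold, 1 was lower at the EpCAM step and 0 between the ends, and at 1.5-fold 5 were lower at the EpCAM step. The counts at the Oct4 and Klf4 steps stayed within 1.5 times under all 8. Of the differences of single members recomputed, 177 stayed within the scatter between probe sets and 23 moved beyond it, all with probe sets averaged. An alternative that left out probe sets with the suffix s or x could not move any member value, because no member was read by one. The 177 therefore include differences that were bound to stay. No member difference of at least 1 changed sign, and 15 of 40 list medians did under some alternative; the cause was not tested. Elavl4 changed sign with probe sets averaged, from 0.24 to -0.06 at the EpCAM step and from -0.08 to 0.18 between Oct4+Klf4+EpCAM-negative and Oct4-negative cells.

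Counts over all genes moved with the thresholds. At 1.5-fold, 943 genes were higher and 1108 lower at the Oct4 step, 1740 and 1463 at the Klf4 step, and 745 and 560 at the EpCAM step, with 1867 and 1665 between Klf4-positive, EpCAM-negative and Oct4-negative cells and 2429 and 1993 between the ends. At 3-fold the same counts were 201 and 279, 547 and 383, 150 and 75, 579 and 531, and 798 and 684. With the floor at the 75th percentile they were 191 and 303, 495 and 443, 162 and 59, 529 and 581, and 797 and 731. Single arrays limit all 10 genes, and readings at or below the ceiling make some folds of Nefm, Nrcam and Vgf lower bounds.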
